A study of Rattus norvegicus with 7 samples.

Results

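Protocadherins are cell-surface proteins of the cadherin family that neurons use to recognise one another. They were measured here by 39 array probes of 33 genes, among the 30367 probes and 15443 named genes of a 1-colour Agilent rat array. A probe was counted as a protocadherin when the transcript it was designed on belongs to a gene whose symbol begins with Pcdh in the RefSeq gene table. The tissue was cerebellum of female Wistar pups aged 21 days, and each array held the RNA of 1 pup. In the control group (CTRL, 4 pups) the dams ate a standard diet. In the methyl donor deficiency group (MDD, 3 pups) the dams' diet was deficient in folate and vitamin B12 and had lowered choline. Both diets began 1 month before pregnancy and lasted until weaning at day 21, so the lack of methyl donors covered gestation and suckling together. The labels call the pups biological replicates without naming their dams, so p-values measure only the spread between these samples.

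Clustered protocadherins lie in tandem arrays called alpha, beta and gamma. Each beta gene is a single exon, whereas every gamma gene joins its own first exon to exons that all gamma genes share. Individual neurons switch on different sets of these promoters, a choice that depends on the insulator protein CTCF, on cohesin and on DNA methylation, and matching sets on opposing membranes bind each other. In the cerebellum gamma protocadherins are known for keeping the dendrites of a Purkinje cell from crossing. Non-clustered members, grouped as delta-1 and delta-2, are single genes on several chromosomes that act in cell sorting, axon growth and synapse formation.

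Probes covered 11 beta genes (13 probes), 13 gamma genes (14 probes), 3 delta-1 genes (5 probes), 4 delta-2 genes (5 probes) and, as other non-clustered members, Pcdh12 and Pcdh20 (2 probes). No probe was matched to an alpha gene, so the alpha cluster is not analysed here, nor are Pcdh1, Pcdh10, Pcdh15, Pcdhgc3, Pcdhga4 and several beta genes. Of the 39 probes, 37 of 32 genes gave a signal above background on at least 3 arrays and were tested. The other 2 were the probe of Pcdh12, a protocadherin of endothelial cells, which was above background on 2 of 4 CTRL and 0 of 3 MDD arrays, and the second Pcdh11x probe (A_64_P165548), which was on 0 of 7. Probe sequences are not among the files used here. Whether a gamma probe lies in a gene's own exon or in the shared ones, and whether a beta probe also binds a near-identical neighbour, was therefore not tested, and assignments within the clusters are uncertain.

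Each value below is the log2 of a probe's intensity over the 75th percentile of its own array, so a negative value is a probe dimmer than that mark and not an absent transcript. The levels of different probes are not compared. That percentile was 1305, 2105, 1864 and 1649 intensity units in CTRL pups 1 to 4 and 1669, 1562 and 1140 in MDD pups 1 to 3, lowest in MDD pup 3. The share of spots clear of background ran from 74.1% to 79.6%, and no spot was saturated. Neurod1 and Gabra6 of granule neurons and Pcp2 and Calb1 of Purkinje cells were detected on all 7 arrays.

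Protocadherin signal was mostly lower in MDD. Of 37 tested probes, 34 had a lower mean in MDD, as did 53.4% of all probes, and 3 had a higher mean, with a median difference of -0.46 on the log2 scale, against -0.04 over all 22255 probes tested. By limma with Benjamini-Hochberg adjustment, 7 probes fell, those of Pcdhb6, Pcdhb8, Pcdhga5, Pcdhgb7, Pcdhga12, Pcdh17 (A_64_P054606) and Pcdh19. These are 18.9% of the members, where 7.85% of all probes were called lower. Members called higher numbered 0, where 12.3% of all probes were. At an unadjusted p under 0.05 there were 17 of 37 members, all lower, where 38.8% of all probes had such a p in either direction. These include the called Pcdhga5 and probes of Pcdhga3, Pcdhga7 (A_64_P020103) and Pcdhga10. Each of those named passed the filter through the CTRL group, with 1 of 3 MDD arrays above background. Calls by limma with an intensity trend and robust prior numbered 8 lower and 0 higher, where 2123 and 3225 of all 22255 probes were. In the reported fit, calls in either direction made up 20.1% of all probes, so members were called about as often as other probes. The values of all pups lay lower in MDD, with no overlap, for 13 members, or for 16.8% of all probes, and higher with no overlap for 0 members, or 19.6% of all probes.

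**Figure D1:**
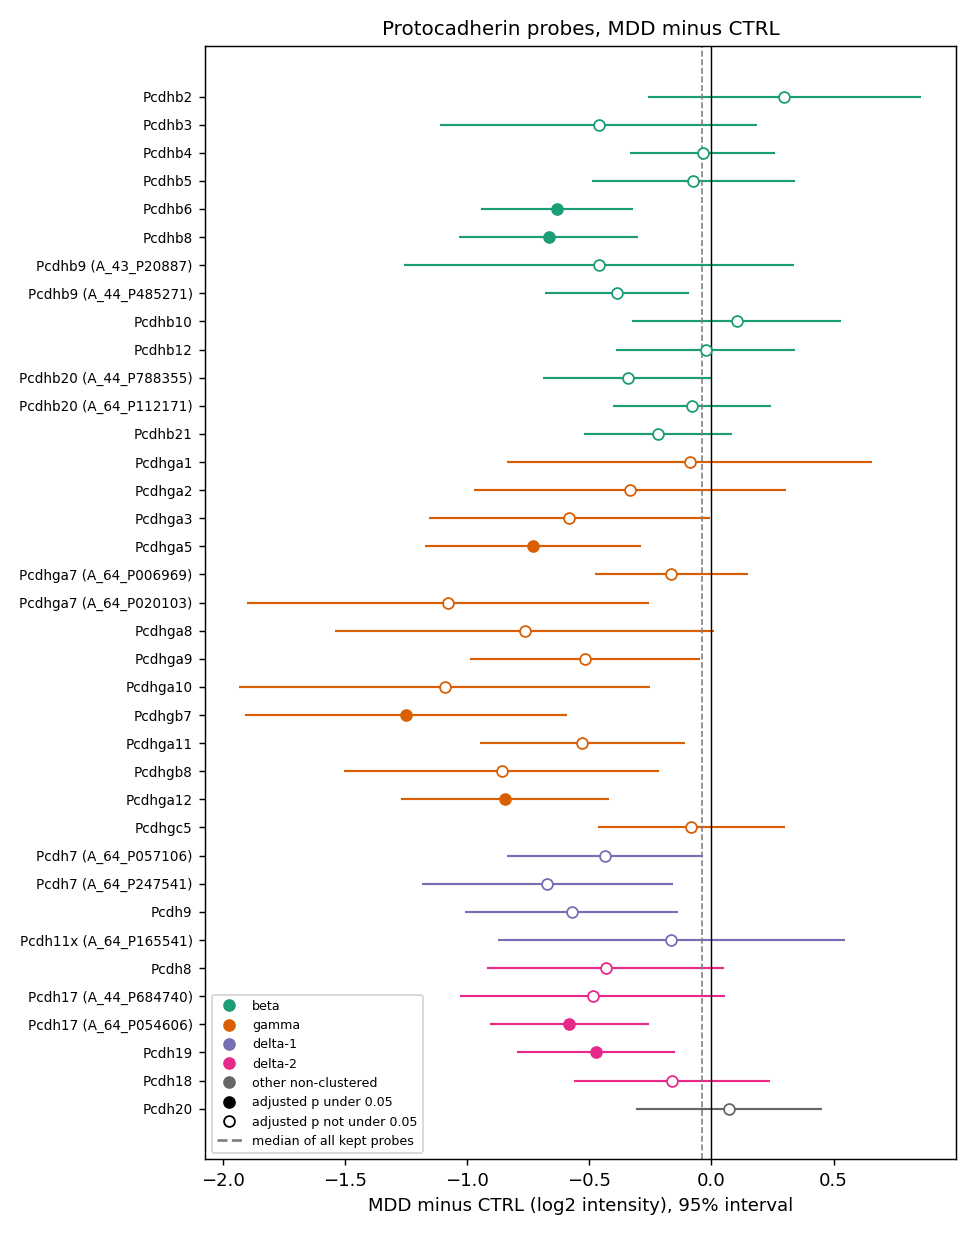
Difference between MDD and CTRL means (log2 intensity, horizontal axis) for each of the 37 protocadherin probes tested, with 95% intervals from limma (4 CTRL and 3 MDD pups). Filled points passed an adjusted p of 0.05. Most points lie left of 0 and of the dashed line, the median of all probes at -0.04. Gamma probes reach farthest, to -1.25 for Pcdhgb7.

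The count of calls rested on few pups. Probes called lower numbered 0 without CTRL pup 3 or without CTRL pup 4, 1 without MDD pup 1, 2 without CTRL pup 1 or without MDD pup 3, 3 without CTRL pup 2 and 15 without MDD pup 2. The 1 called without MDD pup 1 was Pcdhb3, which was not among those called with all pups. Calls over all probes moved too. Without CTRL pups 1, 2, 3 and 4 in turn, 2.35%, 3.02%, 1.68% and 1.15% of all probes were called lower. Without MDD pups 1, 2 and 3 in turn, 2.78%, 11.8% and 4.48% were. With the row of the slide as a block, which sets 1 CTRL pup against the MDD pups, 0 members were called (5 at an unadjusted p under 0.05), and 2 of all 22255 probes were called lower. Directions were steadier. Members with a lower mean in MDD numbered between 29 and 34 of 37 under every alternative run on the same probes.

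Medians of clustered and non-clustered protocadherins were close as reported and under most alternatives. They were furthest apart with normexp (clustered minus non-clustered 0.17), without MDD pup 2 (0.13) and with the authors' deposited table (0.11). The median difference was -0.46 over 27 clustered probes (5 called lower) and -0.45 over 10 non-clustered ones (2 called lower). The difference between those medians was not tested. Of all probes, 7.85% were called lower. The clusters themselves stood further apart, at -0.66 for gamma and -0.22 for beta. Relative to the CTRL mean, the median clustered probe stood at 0.14, -0.10, 0.11 and -0.11 in CTRL pups 1 to 4 and at -0.31, -0.16 and -0.54 in MDD pups 1 to 3. The median non-clustered probe stood at 0.12, -0.07, -0.04 and -0.04 in CTRL and at -0.29, -0.32 and -0.37 in MDD. In both sets all MDD pups lay below all CTRL pups, and MDD pup 2 was the nearest to CTRL among the clustered probes only. The clustered median was -0.17 with normexp, which was run on raw median signals, against -0.34 for the non-clustered probes. Then 3 protocadherin probes were called lower, where 4.29% of all probes were. With intensities of the authors' deposited table the clustered median was -0.22, against -0.33. There 6 were called lower, where 8.78% of all probes were. The cause of these moves was not tested.

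Gamma protocadherins gave the most negative median of any class as reported, at -0.66. Over probes well above background on all 7 arrays the gamma median was -0.52, close to delta-1 (-0.50) and delta-2 (-0.47). Delta-2 was lower than gamma with normexp (-0.43), with the authors' deposited table (-0.41) and without MDD pup 1 (-0.58). Delta-1 was lower than gamma with normexp (-0.34), with the authors' deposited table (-0.33) and without MDD pup 3 (-0.48). All 14 gamma probes had a lower mean in MDD, from -1.25 for Pcdhgb7 to -0.08 for Pcdhgc5, and 3 fell. Of all probes, 53.4% had a lower mean and 7.85% were called lower. Direction held for all 14 with the authors' deposited table (median -0.24) and for 13 of 14 with quantile normalization (-0.60), normexp (-0.19) and the removal of a trend with gene length and signal (-0.37), where Pcdhga1 turned to 0.05, 0.07 and 0.21. It also turned positive with the slide row as a block and without CTRL pup 1, CTRL pup 3 or MDD pup 3. Pcdhga1 itself was well above background on 3 of 4 CTRL and 2 of 3 MDD arrays.

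Pcdhgb7 showed the largest difference of all members. It stood at -2.92, -3.69, -3.07 and -3.26 in CTRL pups and at -4.78, -3.79 and -4.87 in MDD pups. The groups did not overlap, although MDD pup 2 lay only just below CTRL pup 2. The fall was 2.38-fold (log2 -1.25, SE 0.29, adjusted p = 0.0238 by limma). It was called under 10 of 18 alternatives, whose adjusted p ran from 0.00761 to 0.213, and those that lost it included leaving out any of CTRL pups 1, 3 and 4 and MDD pups 1 and 3.

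Pcdhga12, the last A-type gene of the cluster, stood at -4.17, -4.59, -4.56 and -4.64 in CTRL and at -5.55, -4.96 and -5.48 in MDD. All MDD pups were below all CTRL pups. It fell 1.80-fold (log2 -0.84, SE 0.19, adjusted p = 0.0209 by limma), and 11 of 18 alternatives called it, with adjusted p from 0.00947 to 0.245. It was lost when CTRL pup 3, CTRL pup 4, MDD pup 1 or MDD pup 3 was left out. Pcdhga5 stood at -5.42, -6.00, -5.73 and -5.36 in CTRL and at -6.65, -6.19 and -6.24 in MDD. Its groups did not overlap, but the probe was kept through its 4 CTRL arrays and was well above background on only 1 of 3 MDD arrays, so the size of its difference is uncertain. The fitted difference passed (log2 -0.73, SE 0.19, adjusted p = 0.0347 by limma), a call kept under 4 of 17 alternatives (adjusted p from 0.0276 to 0.895) and lost without CTRL pups 1, 3 or 4 or MDD pups 1 or 3. With normexp the difference was -0.05.

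The remaining gamma probes did not pass. Those with the widest differences were a Pcdhga7 probe (A_64_P020103, -1.08), Pcdhga10 (-1.09), Pcdhgb8 (-0.86) and Pcdhga8 (-0.76). In all of them MDD pup 2 lay inside the CTRL range and MDD pups 1 and 3 lay below it. Pcdhga10 is an example, with CTRL pups at -5.20, -5.85, -5.40 and -5.74 and MDD pups at -6.67, -5.75 and -7.50 (adjusted p = 0.0669 by limma, well above background on 1 of 3 MDD arrays). Pcdhgb8 was measured well above background on all 7 arrays, at -3.02, -3.62, -3.34 and -3.35 in CTRL and at -4.36, -3.49 and -4.73 in MDD (adjusted p = 0.0627). The other probes, of Pcdhga3 (-0.58), Pcdhga11 (-0.53), Pcdhga9 (-0.52) and Pcdhga2 (-0.33), differed less, and among them only the groups of Pcdhga11 did not overlap.

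This split among the MDD pups ran through the gamma cluster. In MDD pup 1 and in MDD pup 3, 12 of 14 gamma probes lay below every CTRL pup, whereas in MDD pup 2 only 4 did and 1 lay above. Over all 22255 probes, 41.0%, 29.1% and 35.5% lay below every CTRL pup in MDD pups 1, 2 and 3. The median gamma probe stood at 0.31, -0.25, 0.13 and -0.11 relative to the CTRL mean in CTRL pups 1 to 4 and at -0.90, -0.15 and -0.88 in MDD pups 1 to 3. CTRL pup 2 was thus below MDD pup 2, and the groups overlapped on this measure. Without MDD pup 2 the gamma median was -0.86 and 10 gamma probes were called lower, where 11.8% of all probes were. They included probes of Pcdhga3, Pcdhga5, Pcdhga7 (A_64_P020103), Pcdhga8 and Pcdhga10, which were above background on all 4 CTRL arrays but on 1 or 2 of 3 MDD arrays. Without MDD pup 1 the gamma median was -0.55 and 0 gamma probes were called lower (2.78% of all probes). Without MDD pup 3 it was -0.46 and 0 were (4.48% of all probes). Values from 3 pups do not show which of them is typical of the diet.

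**Figure D2:**
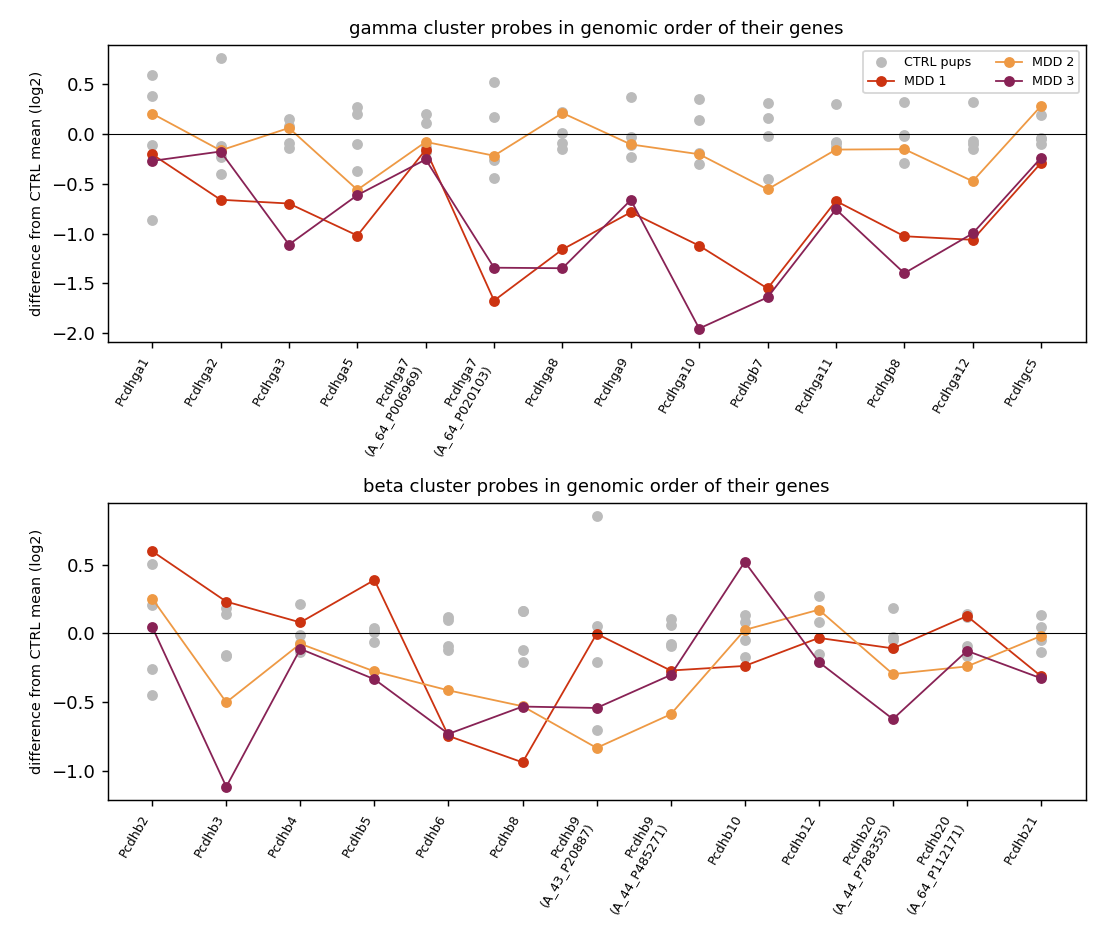
Difference of each pup from the CTRL mean (log2, vertical axis) for the 14 gamma probes (top) and 13 beta probes (bottom), in the genomic order of their genes. Grey points are the 4 CTRL pups and coloured lines the 3 MDD pups. Along the gamma cluster MDD pups 1 and 3 run together below CTRL while MDD pup 2 stays near it, which the beta cluster does not show.

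Probes of both end genes of the gamma cluster, and the brightest gamma probe, gave small differences. Pcdhgc5, a C-type gene at the end nearest the shared exons, stood at -0.62, -0.68, -0.38 and -0.61 in CTRL and at -0.86, -0.29 and -0.81 in MDD (log2 -0.08, 95% interval -0.46 to 0.30). MDD pup 2 was above all CTRL pups there, and the groups overlapped. The first gene, Pcdhga1, had a difference of -0.09 (interval -0.83 to 0.66). The other Pcdhga7 probe (A_64_P006969) was the brightest of the cluster, at 4.34, 4.29, 4.57 and 4.67 in CTRL and 4.31, 4.39 and 4.21 in MDD. Its difference of -0.16 (interval -0.47 to 0.15, adjusted p = 0.402 by limma) was smaller than that of the dim probe of the same gene. This probe depended on the scaling, since it was called lower with quantile normalization (-0.66, adjusted p = 0.0290) and with the authors' deposited table (-0.62, adjusted p = 0.0203), while 16 of 18 alternatives did not call it.

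Of the 14 gamma probes, 8 were well above background on all 7 arrays (median -0.52) and 6 were not (median -0.75). Of those 6, 5 were on all 4 CTRL arrays but on 1 or 2 of 3 MDD arrays. They passed the filter through the CTRL group, so the size of their differences is uncertain. Under normexp, which damps differences near background, Pcdhgb7 still fell (-0.72, adjusted p = 0.0317), Pcdhga12 was at -0.34 and Pcdhgb8 at -0.48, while Pcdhga10 was at -0.17. On this scale the brightest Pcdhga7 probe was at -0.18.

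Beta protocadherins differed less and less evenly. Of 13 probes, 11 had a lower mean in MDD and 2 fell, where 53.4% of all probes had a lower mean and 7.85% were called lower. The median was -0.22, and it was -0.06 with quantile normalization, where only 7 of 13 probes had a lower mean. Relative to the CTRL mean the median beta probe stood at 0.08, -0.07, 0.11 and -0.12 in CTRL pups and at -0.03, -0.28 and -0.33 in MDD pups, so MDD pup 1, among the lowest for gamma, was inside the CTRL range for beta.

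Pcdhb6 stood at -4.00, -4.03, -4.22 and -4.25 in CTRL and at -4.87, -4.54 and -4.85 in MDD, with no overlap. It fell 1.55-fold (log2 -0.63, SE 0.14, adjusted p = 0.0198 by limma), under 9 of 18 alternatives (adjusted p from 0.0121 to 0.251). The call was lost without any 1 of the CTRL pups or without MDD pup 1. Pcdhb8 stood at -3.78, -3.69, -3.41 and -3.41 in CTRL and at -4.51, -4.10 and -4.10 in MDD, again with no overlap. It fell 1.59-fold (log2 -0.67, SE 0.16, adjusted p = 0.0270 by limma), and also under 9 of 18 alternatives (adjusted p from 0.0193 to 0.703). Its call was lost without CTRL pups 2, 3 or 4 or MDD pup 1. With normexp neither was called, at -0.24 and -0.11.

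**Figure D3:**
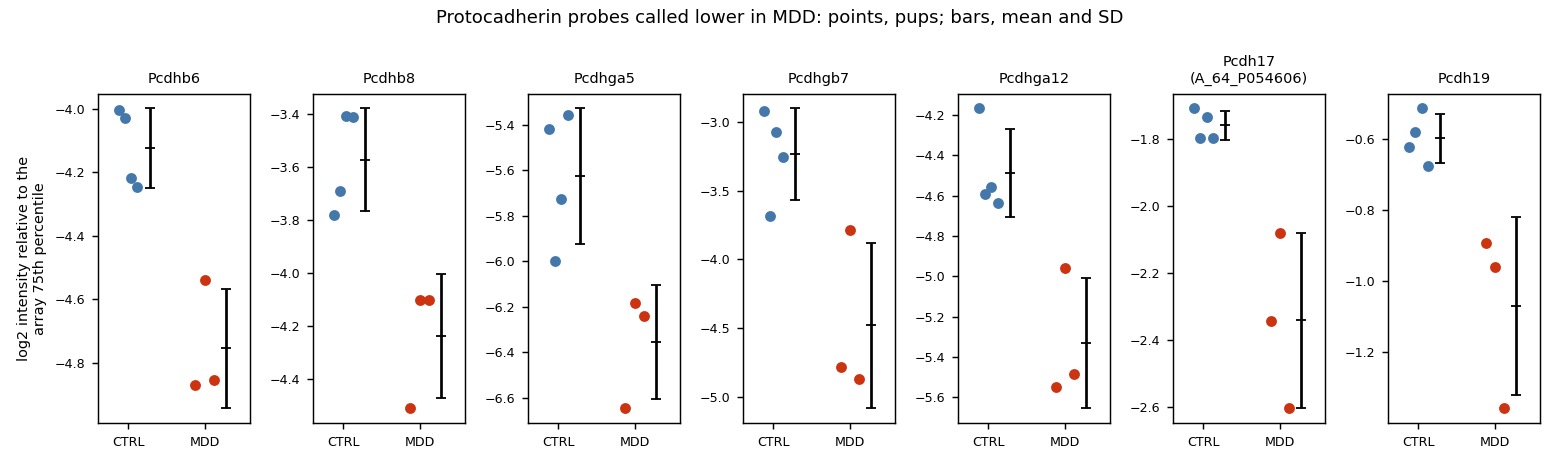
Log2 intensity relative to the array's 75th percentile (vertical axis, its own scale per panel) of the 7 probes called lower in MDD. Blue points are CTRL pups, red points MDD pups, and bars show mean and SD. In each panel all 3 MDD points lie below all 4 CTRL points, by the least for Pcdhgb7.

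The other beta probes were not called. Pcdhb10, the brightest beta probe, stood at -0.76, -0.89, -0.71 and -1.02 in CTRL and at -1.08, -0.82 and -0.33 in MDD, one pup below and one above the CTRL range (log2 0.10, 95% interval -0.32 to 0.53). Pcdhb3 spread most within MDD, at -3.14, -3.88 and -4.49, against -3.23, -3.54, -3.19 and -3.53 in CTRL, and was called lower when MDD pup 1 was left out. Pcdhb4, Pcdhb5 and Pcdhb12 had differences of -0.04, -0.07 and -0.02. The probes of Pcdhb9 were at -0.46 and -0.39 and those of Pcdhb20 at -0.34 and -0.08, and Pcdhb21 was at -0.22. In 1 probe of Pcdhb9 (A_44_P485271) and 1 of Pcdhb20 (A_44_P788355) every MDD pup lay below every CTRL pup. Pcdhb2, with a difference of 0.30, was well above background on 2 of 4 CTRL and 1 of 3 MDD arrays.

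A short sequence in front of the annotated starts of called clustered genes is shown here because it differs between the clusters. Windows of 250 bases before to 50 after the RefSeq start were available for 31 of the 33 genes on assembly GRCr8, Pcdhgb7 and Pcdh19 not among them. Clustered protocadherin promoters are known for a conserved element with the core CGCT, at which CTCF binds. The copy of CGCT nearest the start is in capitals below, in windows of 28 bases, 5′ to 3′ on the plus strand, at chr18:29320153-29320180, chr18:29339259-29339286, chr18:29770904-29770931 and chr18:29843863-29843890 in that order.
Pcdhb6: agtacacacggtggCGCTgcagtctaag
Pcdhb8: aggacacacggtggCGCTgcagtctaag
Pcdhga5: aggactctaagcgtCGCTgttcaccaga
Pcdhga12: cggactctgagcgcCGCTgttcacccac
The beta windows agree at 27 of 28 bases and the gamma windows at 22 of 28, whereas a beta and a gamma window agree at 13 to 15. The core lies 224 and 203 bases before the annotated start of Pcdhb6 and Pcdhb8 and 22 and 20 bases before that of Pcdhga5 and Pcdhga12. The 300-base windows hold 4, 6, 6 and 14 CG dinucleotides, the site of DNA methylation, in that order, and the median over all windows was 7. DNA methylation itself was not measured.

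Searched on both strands of the 250 upstream bases, CGCT was present in all 11 beta windows, in 10 of 12 gamma windows and in 6 of 8 non-clustered ones, but also in 55.1% of all 33469 windows. Gamma windows without these letters were those of Pcdhga1 and Pcdhgc5. Longer words were taken from the Pcdhb6 and Pcdhga5 windows after these were seen, and both contain CGCT. GGTGGCGCTG was in 11 of 11 beta windows and 0 gamma windows, and in 0.188% of all windows. CGCTGTTCACC was in 6 of 12 gamma windows and 0 beta windows, and in 0.0538% of all. The beta word was thus as present in Pcdhb10, Pcdhb4 and Pcdhb12, which were not called, as in the called Pcdhb6 and Pcdhb8.

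Among delta-2 protocadherins, which link to the actin-regulating WAVE complex, 2 of 5 probes fell and all 5 had a lower mean, with a median of -0.47. Over all probes, 7.85% were called lower and 53.4% had a lower mean. Pcdh17, which organises presynaptic sites, was read by a pair of probes. At A_64_P054606 it stood at -1.71, -1.80, -1.74 and -1.80 in CTRL and at -2.34, -2.08 and -2.60 in MDD. The CTRL pups were within a tight range and every MDD pup was below it. It fell (log2 -0.58, SE 0.14, adjusted p = 0.0280 by limma), called under 7 of 17 alternatives (adjusted p from 0.0124 to 0.252) and, among those that left out a pup, only without MDD pup 2. At A_44_P684740 Pcdh17 stood at 0.72, 0.85, 0.67 and 0.76 in CTRL and at 0.53, 0.65 and -0.39 in MDD, also without overlap. There MDD pup 3 alone was far below, the difference of -0.49 did not pass (adjusted p = 0.167), and without MDD pup 3 it was -0.16.

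Pcdh19, an X-linked gene whose loss causes epilepsy mostly in girls, stood at -0.62, -0.58, -0.52 and -0.68 in CTRL and at -0.89, -0.96 and -1.36 in MDD. The groups did not overlap. It fell 1.39-fold (log2 -0.47, SE 0.14, adjusted p = 0.0489 by limma), close to the threshold, and kept its call under 5 of 18 alternatives (adjusted p from 0.0312 to 0.375) and under 0 of the 7 that left out a pup. Pcdh8, also known as arcadlin and induced by neuronal activity, had a difference of -0.43 (95% interval -0.92 to 0.05), and Pcdh18 of -0.16 (interval -0.56 to 0.24).

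Delta-1 protocadherins bind protein phosphatase 1 through their cytoplasmic tails. None of their 4 tested probes passed, 3 had an unadjusted p under 0.05, and all had a lower mean, with a median of -0.50. Such a p was found for 38.8% of all probes and a lower mean for 53.4%. Pcdh9, the brightest delta-1 probe, stood at 2.35, 1.97, 2.12 and 2.42 in CTRL and at 1.45, 2.05 and 1.44 in MDD. MDD pup 2 was inside the CTRL range and the other MDD pups below it, an order that 6 of 14 gamma probes also had. This order was not counted over all probes, where MDD pup 2 lay inside the CTRL range for 8953 of 22255. The Pcdh9 difference was -0.57 (adjusted p = 0.0650 by limma). It was called under 4 of 18 alternatives (adjusted p from 0.0175 to 0.214), among them quantile normalization (-0.76) and the authors' deposited table (-0.67). The probes of Pcdh7 were at -0.43 and -0.67, without overlap of the groups, and Pcdh11x was at -0.16. Pcdh20, outside the delta families, stood at -2.13, -2.19, -2.24 and -2.36 in CTRL and -2.51, -1.84 and -2.12 in MDD, a difference of 0.07 (interval -0.31 to 0.45).

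Gene length moved with the diet difference across the array, and protocadherin genes lie at both ends of it. In the decile of named probes with the shortest genes (0.201 to 3.50 kb) the median difference was 0.24, with 3.16% called lower. The 12 beta probes in that decile had a median of -0.28, with 11 lower means. In the decile just below the longest genes (70.1 to 128 kb) the median of all probes was -0.23, with 13.2% called lower, and the 9 gamma probes there had a median of -0.84. In the decile of the longest genes the median was -0.29, against -0.46 for 4 gamma and -0.50 for 4 delta-1 probes. With each array's trend with length and signal removed, 5 of 37 members were called lower, against 4.38% of the 14230 named probes that could be fitted. These were Pcdhb6, Pcdhb8, Pcdhgb7, Pcdhga12 and a Pcdhb9 probe. The medians were then -0.28 for beta, -0.37 for gamma and -0.28 for non-clustered probes. Length here is the genomic span in the RefSeq table, which for gamma genes includes the introns up to the shared exons.

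**Figure D4:**
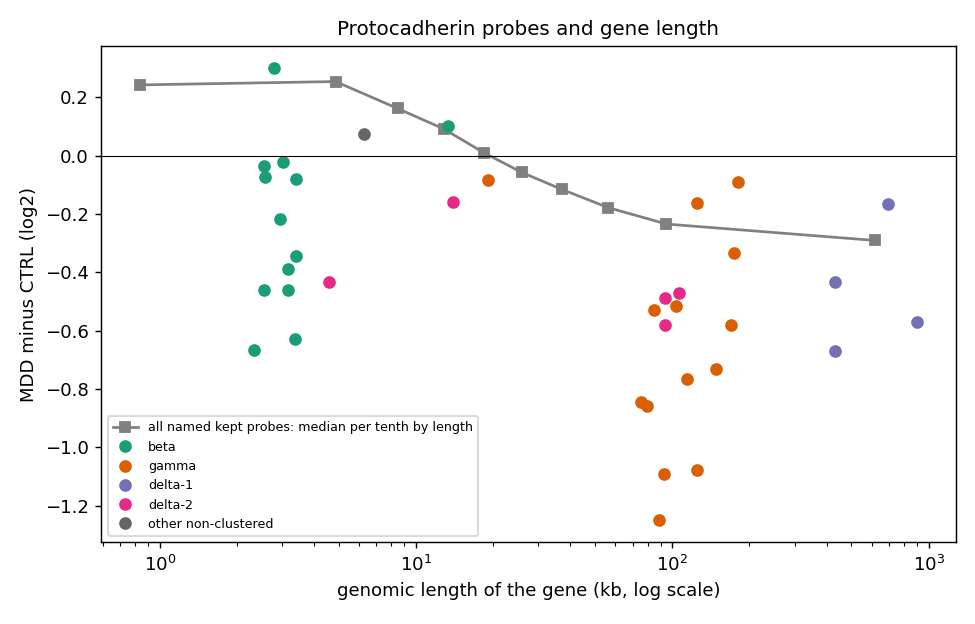
MDD minus CTRL (log2) against genomic gene length (kb, log axis) for the 37 tested protocadherin probes, coloured by class. Grey squares give the median of all named probes per decile of length, placed at the geometric mean of its length limits, and go from 0.24 at the short end to -0.29 at the long end. Beta points lie below the squares at the short end, with the exception of Pcdhb2 and Pcdhb10.

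Genes that act on or with protocadherins were counted from lists, to be read against the 7.85% of all probes called lower and 12.3% called higher. Among regulators of clustered promoters (17 probes of 13 genes), 3 probes fell and 0 rose, with a median of -0.34. These were probes of the cohesin subunits Stag2 (log2 -0.60, SE 0.12, adjusted p = 0.0150) and Rad21 (log2 -0.40, SE 0.12, adjusted p = 0.0464) and of the cohesin-associated Pds5a (log2 -0.70, SE 0.21, adjusted p = 0.0475). A second Stag2 probe did not pass (-0.35, adjusted p = 0.137). Ctcf itself was at -0.34 (adjusted p = 0.0927) and the methyltransferase gene Dnmt3a at -0.50 (adjusted p = 0.126). Dnmt1, Dnmt3b and Smchd1 had no probe kept or matched.

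Among genes of adhesion and signalling downstream (43 probes of 30 genes), 6 probes fell and 2 rose, with a median of -0.27. Ppp1cb, a catalytic subunit of the phosphatase that delta-1 members bind, fell at 1 probe (log2 -0.67, SE 0.11, adjusted p = 0.0107), while its other probes were at -0.38 and 0.32 and were not called. Lower calls were also made for both probes of Abi1, a WAVE complex subunit (log2 -0.66 and -0.50), whereas both probes of Brk1, another WAVE subunit, rose (log2 0.56 and 0.47). Cdh2, the cadherin that Pcdh8 draws into the cell, fell by 0.74 on the log2 scale. Of other large cadherins (11 probes of 9 genes), 3 probes fell and 0 rose, with a median of -0.16. These were 1 of Celsr3 (log2 -0.74) and 2 of Fat2 (log2 -0.69 and -0.54). Fat2 is also a granule neuron marker, and its probes are counted again in that list below.

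Some cell type markers differed between the groups too, and in bulk tissue fewer cells of a type and less RNA per cell cannot be told apart. Their counts are likewise to be read against the 7.85% of all probes called lower and 12.3% called higher. Of 14 granule neuron probes, 6 fell, among them those of Fat2 given above, and 0 rose, with a median of -0.43. Their summed signal, in multiples of the array's 75th percentile, was 105.3 to 111.5 in CTRL and 89.7 to 101.1 in MDD. Of 10 Purkinje cell probes, 3 fell and 1 rose (median -0.13), with sums of 149.0 to 164.9 in CTRL and 155.5 to 174.7 in MDD. Their mean log2 level was 2.82 to 2.95 in CTRL and lower, 2.75 to 2.79, in MDD. Of 10 cerebellar interneuron probes, 2 rose (Pvalb and Sst) and 3 fell (of Gad1, Gad2 and Slc6a5), with a median of -0.12. Their sums were 96.5 to 109.5 in CTRL and 130.9 to 161.7 in MDD, but their mean log2 levels overlapped (0.37 to 0.50 and 0.36 to 0.54). Of 12 microglial probes, 7 rose and 1 fell, with sums of 10.2 to 10.9 in CTRL and 14.4 to 19.7 in MDD. Endothelial markers, the cells of Pcdh12, had 1 of 8 probes higher and 0 lower. The part of these shifts in the protocadherin differences was not tested.

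**Figure D5:**
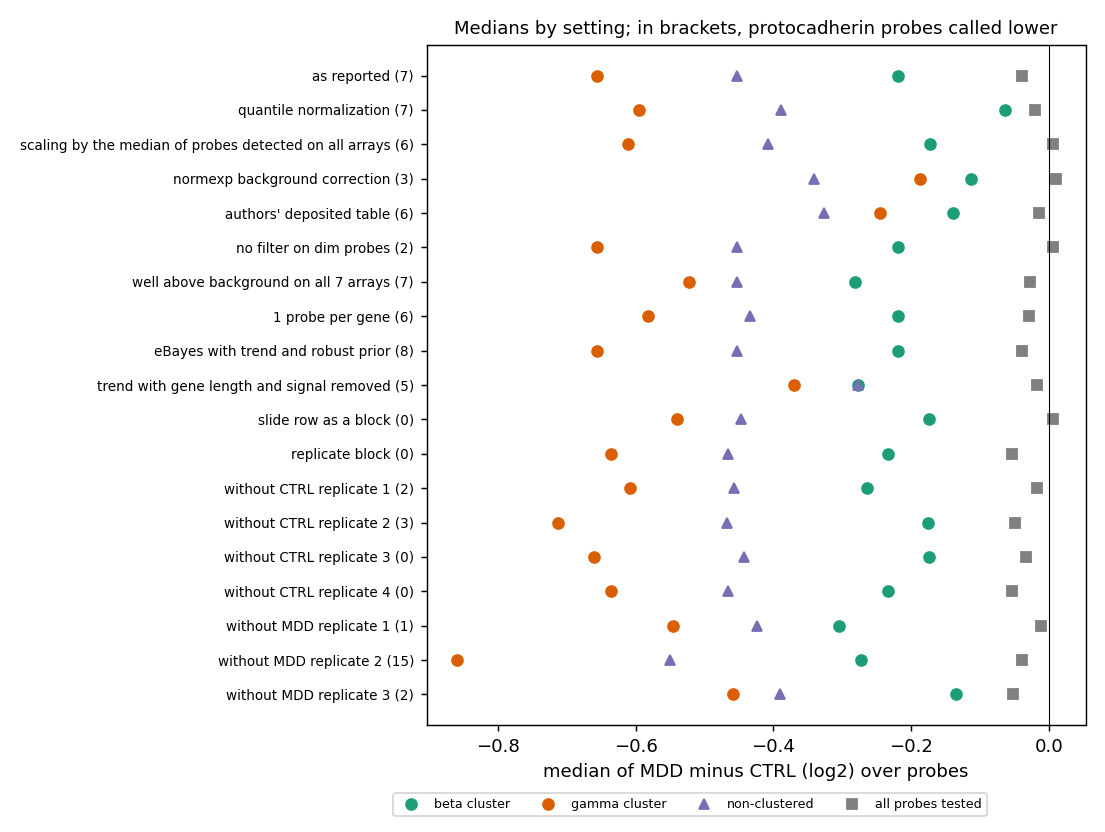
Median MDD minus CTRL (log2, horizontal axis) of beta, gamma and non-clustered protocadherin probes and of all probes tested, for the reported setting and each alternative, with the number of protocadherin probes called lower in brackets. Class medians stay below 0 in every setting. Gamma lies left of the others except with normexp and the authors' deposited table, and the count runs from 0 to 15.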

How the data were processed

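Feature Extraction 10.7.3.1 made the deposited scanner tables (array design 028279, grid build rn4), per the file headers. The authors deposited linear intensities per spot, background-subtracted within the array, with raw medians and 0 or 1 flags (scored by the scanner software). A deposited table of normalized intensities names groups but not pups, and how it was normalized is not stated there. All 7 arrays share 1 slide and 1 scan time. CTRL pups 1 to 3 lie in row 1 of the slide, and CTRL pup 4 and MDD pups 1 to 3 in row 2. Diet and slide row thus largely coincide, and differences due to either are hard to tell apart.

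Processed signals were taken as log2, reduced by each array's 75th percentile and averaged over a probe's spots without outliers. Probes above background (at least 50% of spots) on 3 or more of 7 arrays were kept, 22255 of 30367. Transcript accessions, identical in both tables, gave symbols for 18355 probes through a RefSeq table of GRCr8. Groups were compared by probe with limma 3.58.1 in R 4.3.3 (two-sided, Benjamini-Hochberg over all kept probes, threshold 0.05), with 5 residual degrees of freedom. The code was tested on simulated data. Normexp (offset 50) used median signals, since the planned mean signals were not in the tables.

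Members and lists were chosen with earlier results of these data known. Named members are those called, the brightest and smallest-p probe of each class and genes whose probes differ in sign; from each list, up to 4 called probes. A few others are named for contrast, chosen after their values were seen. Alternatives were quantile and median scaling, normexp, the authors' table, other filters, 1 probe per gene, another variance prior, removal of a length and signal trend, slide row or replicate number as a block, and each pup left out.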

Additional observations from a re-analysis of the deposited data

Results flagged for a closer look

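Pcdhga11 in CTRL pup 1 stood apart from the other controls, at -3.59 against -4.02 to -3.97, a gap of 0.894 of the group's range beyond the 95% critical value of Dixon's test for 4 samples. It was the 1 value of 41 tested to do so, and chance flags about 1 in 20 groups.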

How the results depend on the processing

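Probes called lower (7 as reported) numbered 3 with normexp, 2 without the filter on dim probes, and 0 with the slide row as a block and with the replicate block, where 12 had an unadjusted p under 0.05. They numbered 0 to 15 when a pup was left out. With the replicate block, 0 of all 22255 probes were called in either direction. The share of all probes with an unadjusted p under 0.05 was not counted there. Of the 7, 5 were also among those called after quantile normalization, and 4 with values of the authors' table. The clustered median was -0.17 with normexp, -0.22 with the authors' deposited table and -0.29 with the length and signal trend removed (-0.51 to -0.40 with a pup left out), and the non-clustered median -0.34, -0.33 and -0.28 (-0.55 to -0.39). Their difference, clustered minus non-clustered, was 0.17 with normexp and -0.049 to 0.13 with a pup left out. Of 37 members, 10 changed sign under at least 1 alternative, 0 of them called. They were probes of Pcdh11x, Pcdhb4, Pcdhb5, Pcdhb9 (A_43_P20887), Pcdhb12, Pcdhb20 (A_64_P112171), Pcdhga1, Pcdhgc5, Pcdh20 (-0.059 with the trend removed, -0.085 to 0.25 with a pup left out) and Pcdhb10 (-0.11 to 0.27 with a pup left out). The cause of these changes was not tested. No sample pairing is stated, and the reported setting did not pair pups by replicate number. Same-numbered deviations correlated at 0.10, -0.17 and 0.21, against -0.23 to 0.15 for other numbers. These are too few values to decide whether the numbers pair the pups. Calls over all 22255 probes, 2730 higher and 1746 lower, became 2507 and 954 with normexp. They were 1338 and 447 of 30367 probes without the filter and 900 and 623 of 14230 named probes with the trend removed. Signal over background limits the gamma probes most, with 8 of 14 detected on all 7 arrays, against 12 of 13 beta and 10 of 10 non-clustered probes.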
